A study of Mus musculus with 6 samples.

Results

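The 10 genes studied here mark hepatic stellate cells and the myofibroblasts they can become, and were read from a table of 56674 gene rows of mouse liver. They were chosen by gene symbol alone, and each of the 10 symbols had a row. The libraries came from male C57BL/6 mice reared for 71 weeks and on 1 of 2 diets, with 3 libraries each. Control mice had normal chow, and the chow of PB-MP mice held polypropylene black microplastic. Comparing the diets asks whether long dietary exposure to this plastic alters gene expression in the liver. The sources used here give neither the dose nor the size of the particles, and no label ties each library to a mouse of its own. The p-values therefore measure only how these 6 libraries vary, and that variation may be technical.

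Stellate cells lie between hepatocytes and the sinusoidal endothelium, where they store vitamin A in lipid droplets. On injury they lose the droplets, gain contractile filaments and lay down collagen, and in that state they are called activated or myofibroblasts. Transforming growth factor beta and platelet-derived growth factor are the best known signals for this switch. The members were divided by textbook role into 4 markers of resting stellate cells (Reln, Cygb, Des and Dcn) and 6 of activation (Acta2, Tagln, Pdgfrb, Tgfb1, Lox and Vim). The division is not sharp, because activated cells keep Des and Dcn, and resting cells already hold some Pdgfrb and Vim. Tgfb1 and Vim are also made by endothelial cells and leukocytes, and Acta2, Tagln and Des by smooth muscle of vessel walls.

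Acta2, Des and Vim, which encode filament proteins, are shown first by the DNA ahead of their start sites, because all 3 stood lower in every PB-MP library than in every control library. The CArG box is the site of serum response factor in smooth muscle genes. Each line gives the 250 bases before the RefSeq start, 5′ to 3′ on the strand of the gene, from the assembly GRCm38.p6. These lie at chr19:34255374-34255623 on the minus strand for Acta2, chr1:75360042-75360291 on the plus strand for Des and chr2:13574061-13574310 on the plus strand for Vim. Capitals mark CArG boxes with 1 G or C among the 6 central bases in Acta2 and the letters TATAAA in Vim.
Acta2: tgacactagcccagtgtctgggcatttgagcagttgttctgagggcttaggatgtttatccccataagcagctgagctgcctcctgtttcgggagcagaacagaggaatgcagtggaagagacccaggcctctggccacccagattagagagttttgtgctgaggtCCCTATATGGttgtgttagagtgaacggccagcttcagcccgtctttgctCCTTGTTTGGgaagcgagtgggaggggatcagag
Des: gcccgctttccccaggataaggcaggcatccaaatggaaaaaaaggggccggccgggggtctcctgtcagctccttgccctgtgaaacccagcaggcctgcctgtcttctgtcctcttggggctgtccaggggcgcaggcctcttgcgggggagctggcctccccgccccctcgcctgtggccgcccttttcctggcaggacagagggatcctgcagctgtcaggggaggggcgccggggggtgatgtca
Vim: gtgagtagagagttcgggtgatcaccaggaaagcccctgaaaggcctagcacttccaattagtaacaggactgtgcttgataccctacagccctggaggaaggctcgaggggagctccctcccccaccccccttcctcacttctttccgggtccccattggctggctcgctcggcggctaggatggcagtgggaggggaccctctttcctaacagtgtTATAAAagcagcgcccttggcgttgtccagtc

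Both Acta2 elements, whose first bases lie 84 and 34 bases before the start, are of the degenerate form, and no window held a CArG box with 6 central A or T bases. The degenerate form was added to the search after the Acta2 sequence had been seen. Of 32851 windows of the same length, 7.24% held the degenerate form and 1.47% the full form on either strand. TATAAA, 32 bases before the Vim start, was in 12.4% of windows. The table held windows for 5 of the 10 members, the other two being Reln and Tgfb1. GGGCGG, searched on both strands, stood in the windows of Des, Reln and Tgfb1, against 32.7% of all windows. The Reln window had a GC content of 80.0%, against a median of 52.4% over all windows. Such matches describe the letters and not the binding of a factor.

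The libraries held 68357478 to 112566641 counted reads. Levels below are CPM, the reads of a gene per 1000000 reads after scaling by the trimmed mean of M-values (TMM), and a count of 3 reads, the limit that a count of 0 allows, equals 0.0285 to 0.0495 CPM, covering counting error only. Control libraries had TMM factors of 0.887 to 0.961 and PB-MP libraries of 1.04 to 1.12, so the scaling itself separates the groups. Markers of the tissue were as labelled, with Alb, encoding albumin, at 47165 to 56244 CPM. Of a further list of resting stellate cell genes, 22 of 22 passed the filter on low counts, as did 17871 of all 56674 rows. Lists for lymphocytes (9 of 9) and mesothelium (7 of 7) passed in full as well, so passing does not measure how many such cells were present. Lrat, which esterifies vitamin A for storage, stood at 6.28 to 20.1 CPM.

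No member passed the test between diets, and all 9 that could be tested had estimates below 0. Lox had too few reads for the filter. Over all 17871 genes tested, 0% passed at 0.05 after Benjamini-Hochberg adjustment (quasi-likelihood test of edgeR), and 2161 genes (12.1%) had an unadjusted p below 0.05. DESeq2 called 540 genes (3.02%) and limma-voom 0, and neither called a member. The smallest adjusted p of a member was 0.357, for Acta2. The median log2 fold change, PB-MP over control, was -0.58 for the 4 resting markers and -0.53 for the 5 activation markers tested, beside 0.01 for all genes, of which 49.4% had estimates below 0. For 4 of the 9 (Acta2, Cygb, Des and Vim) every PB-MP library lay below every control library, against 8.49% of all genes, and for none did every PB-MP library lie above, against 11.4% of all genes. The same 4 had an unadjusted p below 0.05, where 4.74% of all genes were lower at that p. With library size as the only scaling, Acta2 alone of the 9 kept the groups apart, against 2.99% of all genes, the median of all genes moved to 0.23, and those of the resting and activation markers to -0.38 and -0.31. In bulk tissue, fewer cells of a type and less RNA per cell cannot be told apart.

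**Figure D1:**
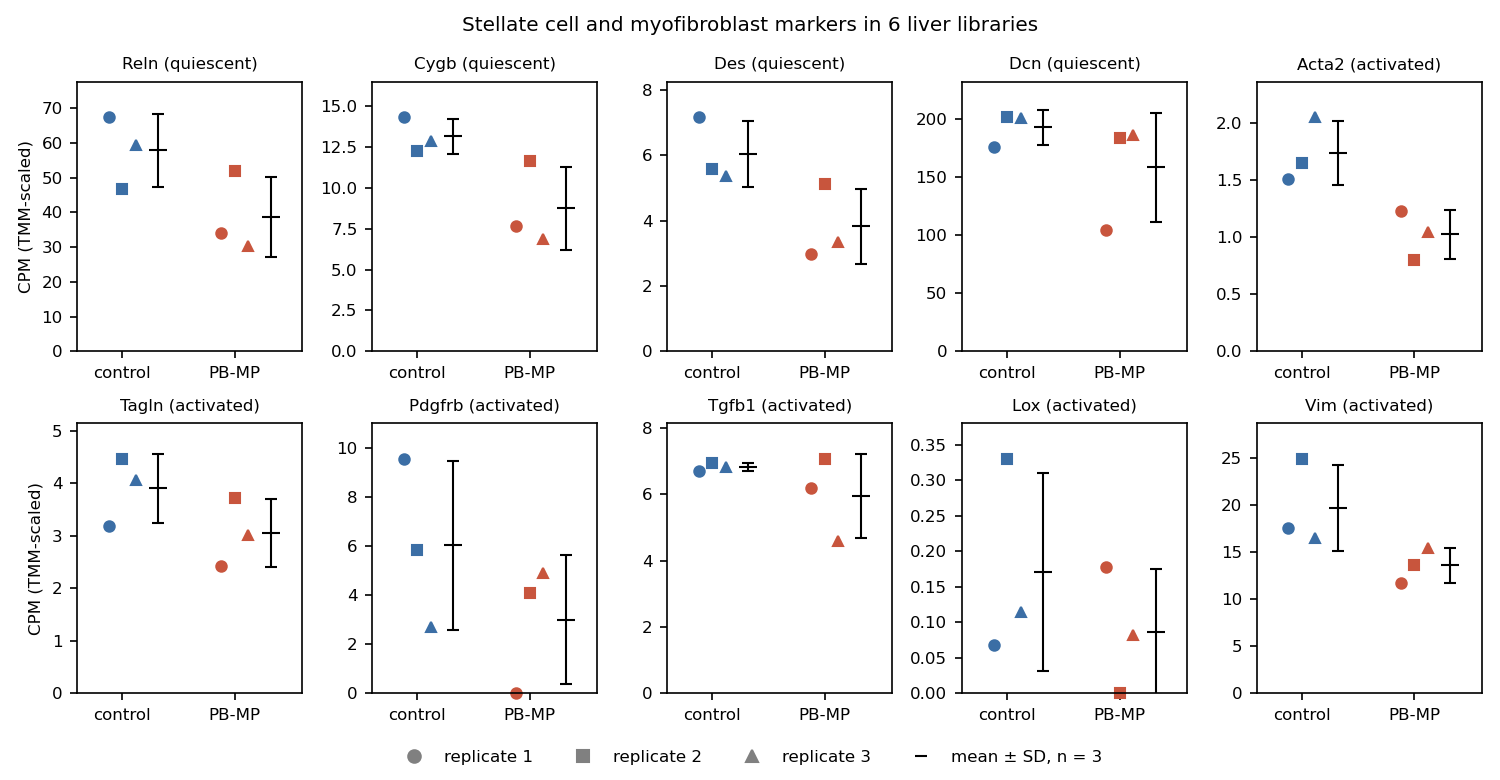
TMM-scaled CPM (vertical axes, each from 0) of the 10 members in 3 control and 3 PB-MP libraries. Symbols give single libraries by replicate number, and the black mark gives the mean ± SD of 3. Acta2, Cygb, Des and Vim show no overlap between the groups, and PB-MP replicate 1 is at 0 for Pdgfrb.

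Among the resting markers, Reln, Cygb and Des were low in PB-MP replicates 1 and 3 and near the controls in PB-MP replicate 2. Reln encodes reelin, a large secreted glycoprotein best known from neuronal migration and made in liver by stellate cells. Control replicates 1, 2 and 3 held 67.5, 46.6 and 59.4 CPM of Reln, and PB-MP replicates 1, 2 and 3 held 34.1, 51.9 and 30.3 CPM. PB-MP replicate 2 lay above control replicate 2, so the groups overlapped. The log2 fold change was -0.58 ± 0.25 (SE; edgeR adjusted p = 0.420).

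Cygb encodes cytoglobin, an oxygen-binding globin of resting stellate cells. Its control libraries held 14.3, 12.2 and 12.8 CPM and its PB-MP libraries 7.68, 11.6 and 6.88 CPM. The groups did not overlap, though PB-MP replicate 2 was close to control replicate 2. Means were 13.1 ± 1.09 CPM for control and 8.74 ± 2.55 CPM for PB-MP (SD, 3 libraries each), and the log2 fold change was -0.59 ± 0.24 (edgeR adjusted p = 0.407). Of the other globins listed, Hba-a1 and Hbb-bs, the abundant chains of haemoglobin, had log2 fold changes of 0.24 ± 0.33 and 0.87 ± 0.36, and Mb, encoding myoglobin, had no read in any library.

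Des encodes desmin, the intermediate filament by which stellate cells were first stained in rodents. It had 7.18, 5.58 and 5.35 CPM in control and 2.99, 5.12 and 3.35 CPM in PB-MP. Here too the groups did not overlap and PB-MP replicate 2 was the highest of its group. The log2 fold change was -0.66 ± 0.27 (edgeR adjusted p = 0.409). Desmin is also abundant in skeletal muscle, and of 8 genes listed for that tissue, Ckm, Acta1, Myh1, Myh2, Myh4 and Tnnt3 had 0 reads in all 6 libraries. Mylpf, a myosin light chain of the same list, was read in all 6 at 0.418 to 0.718 CPM, with overlapping groups, and Tnnc2 only in PB-MP replicate 3, at 0.0308 CPM.

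Dcn encodes decorin, a small proteoglycan that coats collagen fibrils and binds transforming growth factor beta. It departed from the other 3 resting markers in PB-MP replicate 3, where it was near the controls. It also departed in control replicate 1, its lowest control and the highest control of the others. Its levels were 176, 202 and 201 CPM in control and 104, 184 and 187 CPM in PB-MP, so only PB-MP replicate 1 lay below the controls. The log2 fold change was -0.29 ± 0.24 (edgeR adjusted p = 0.680). It was -0.06 without PB-MP replicate 1 and -0.07 with library size as the only scaling.

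Among the activation markers, Acta2 had the smallest p, and its order of libraries differed from that of the resting markers. Acta2 encodes smooth muscle alpha-actin, the classic stain for myofibroblasts. Its counts were 110, 100 and 216 reads in control and 97, 68 and 102 reads in PB-MP, or 1.51, 1.65 and 2.05 CPM against 1.23, 0.804 and 1.05 CPM. The groups did not overlap, and the lowest library was PB-MP replicate 2, the one in which Reln, Cygb and Des were nearest to control. The log2 fold change was -0.76 ± 0.28 (SE, 95% interval -1.41 to -0.11; edgeR adjusted p = 0.357). The interval is not adjusted for the number of genes.

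Vim encodes vimentin, the intermediate filament of mesenchymal cells. It had 17.6, 25.0 and 16.5 CPM in control and 11.7, 13.7 and 15.4 CPM in PB-MP. The groups did not overlap, with control replicate 2 standing above the other 5 libraries. The log2 fold change was -0.53 ± 0.22 (edgeR adjusted p = 0.413), and -0.35 without control replicate 2. That library also had the highest summed level of lymphocyte markers, at 142 CPM, most of it Igkc at 125 CPM, against 8.63 to 70.1 CPM in the other 5, and the part of these cells in the Vim level was not tested.

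Tagln encodes transgelin, an actin-binding protein of contractile cells, and it overlapped between the groups. Its levels were 3.18, 4.47 and 4.06 CPM in control and 2.42, 3.72 and 3.02 CPM in PB-MP, with a log2 fold change of -0.35 ± 0.26 (edgeR adjusted p = 0.619). Without PB-MP replicate 1 it was -0.21, and with library size as the only scaling -0.14. Its value is uncertain, since 48.3% of the 50-base windows of its transcript occur in transcripts of other genes, mainly the antisense transcript Gm48529, with 118 to 371 reads against 191 to 427 for Tagln, and to a smaller extent the neighbour Pcsk7. For Acta2, which has several close actin relatives, the same share was 0.352%.

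Tgfb1 encodes the cytokine that drives collagen synthesis. It was the steadiest member in control, at 6.71, 6.95 and 6.83 CPM, and it stood at 6.17, 7.07 and 4.59 CPM in PB-MP. PB-MP replicate 2 was the highest of all 6 libraries and PB-MP replicate 3 the lowest. The log2 fold change was -0.20 ± 0.22 (95% interval -0.72 to 0.31; edgeR adjusted p = 0.753), and with library size as the only scaling it turned to 0.017. It was -0.34 without PB-MP replicate 2 and -0.05 without PB-MP replicate 3.

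Pdgfrb encodes the receptor through which platelet-derived growth factor drives stellate cell division. It varied most, relative to its mean, of the 9 members tested, at 697, 355 and 283 reads in control replicates 1, 2 and 3 and at 0, 346 and 479 reads in PB-MP replicates 1, 2 and 3. In CPM these were 9.56, 5.86 and 2.69 in control and 0, 4.09 and 4.91 in PB-MP, with a limit of 0.0380 CPM for the count of 0. Of 9172 genes with at least 2.5 CPM in each of the other 5 libraries, Pdgfrb was the only one without a read in PB-MP replicate 1. That level was chosen after the Pdgfrb values were seen. At the same level, 5 other genes were at 0 in just 1 of the other libraries, among them Cdh5, an endothelial cadherin, in control replicate 1. The log2 fold change of Pdgfrb was -1.01 ± 1.32, with an interval from -4.13 to 2.12. It depended on PB-MP replicate 1 and about as much on control replicate 1, the highest control. Without control replicate 1 the log2 fold change was -0.49, without PB-MP replicate 3 it was -1.56, and without PB-MP replicate 1 it was -0.42, and the other 2 PB-MP libraries lay within the range of the controls.

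Lox encodes lysyl oxidase, which crosslinks collagen and elastin. It was close to the detection limit, with 5, 20 and 12 reads in control and 14, 0 and 8 reads in PB-MP. The groups overlapped and no difference was detectable at this depth.

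**Figure D2:**
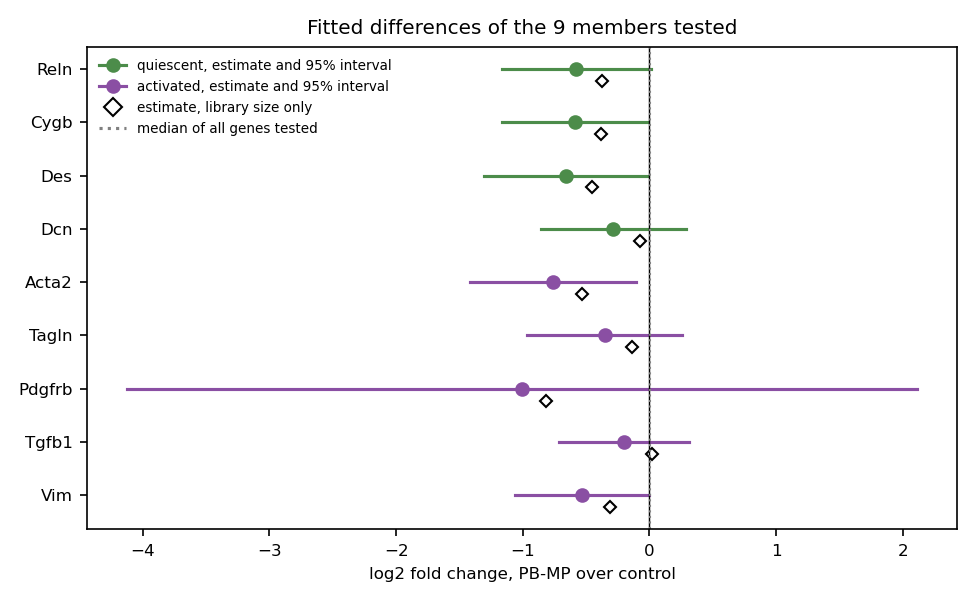
Log2 fold change of PB-MP over control (horizontal axis) for the 9 members tested, with 95% intervals of the edgeR fit. Open diamonds give the estimate with library size as the only scaling, and all 9 diamonds lie to the right of the circles, that of Tgfb1 above 0.

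Per kilobase of annotated exon, which allows genes to be compared, decorin was far the most abundant member. Dcn stood at 33.1 ± 2.56 CPM per kb in control (SD, n = 3), followed by Cygb at 5.63 ± 0.467, Vim at 4.16 ± 0.967, Reln at 2.44 ± 0.444, Tagln at 1.96 ± 0.331 and Des at 1.61 ± 0.265. Then came Tgfb1 at 1.35 ± 0.0235, Pdgfrb at 1.10 ± 0.628, Acta2 at 0.791 ± 0.129 and Lox at 0.0358 ± 0.0292. Control libraries of neighbours in this order overlapped between Cygb and Vim, Reln and Tagln, Tagln and Des, Tgfb1 and Pdgfrb, and Pdgfrb and Acta2. Per kilobase of the longest annotated transcript, Dcn stayed first at 41.1 ± 3.19, but Vim at 6.74 ± 1.57 passed Cygb at 5.63 ± 0.467. On that length Tgfb1 at 2.65 ± 0.0461 passed Tagln at 2.45 ± 0.413 and Des at 1.99 ± 0.328, so the order below Dcn depends on the length used. Per kilobase of exon, every control library of Acta2 was below every control library of the 4 resting markers and of Vim, Tagln and Tgfb1.

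Centred on its own mean over the 6 libraries, each gene shows which libraries it follows. The median over the 4 resting markers was 0.49, 0.22 and 0.25 log2 units in control replicates 1, 2 and 3 and -0.56, 0.13 and -0.55 in PB-MP replicates 1, 2 and 3. Over the 5 activation markers tested it was 0.12, 0.39 and 0.25 in control and -0.47, 0.13 and -0.18 in PB-MP. The same median over all genes ran only from 0.01 to 0.05. By these medians PB-MP replicate 1 was low in both classes, and PB-MP replicate 3 was lower in the resting than the activation markers. The activation median of PB-MP replicate 1 includes Pdgfrb, at -6.42 from its count of 0. Acta2 and Tgfb1 were at -0.10 and -0.03 in PB-MP replicate 1 and lower, at -0.33 and -0.46, in PB-MP replicate 3. Tagln and Vim were at -0.49 and -0.47 in PB-MP replicate 1 and at -0.18 and -0.07 in PB-MP replicate 3. Dcn, a resting marker, was at 0.12 in PB-MP replicate 3. Leaving out PB-MP replicate 2 took the median log2 fold change of the resting markers to -0.85 and that of the same 5 activation markers to -0.54. Leaving out control replicate 2 took the activation markers to -0.35.

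**Figure D3:**
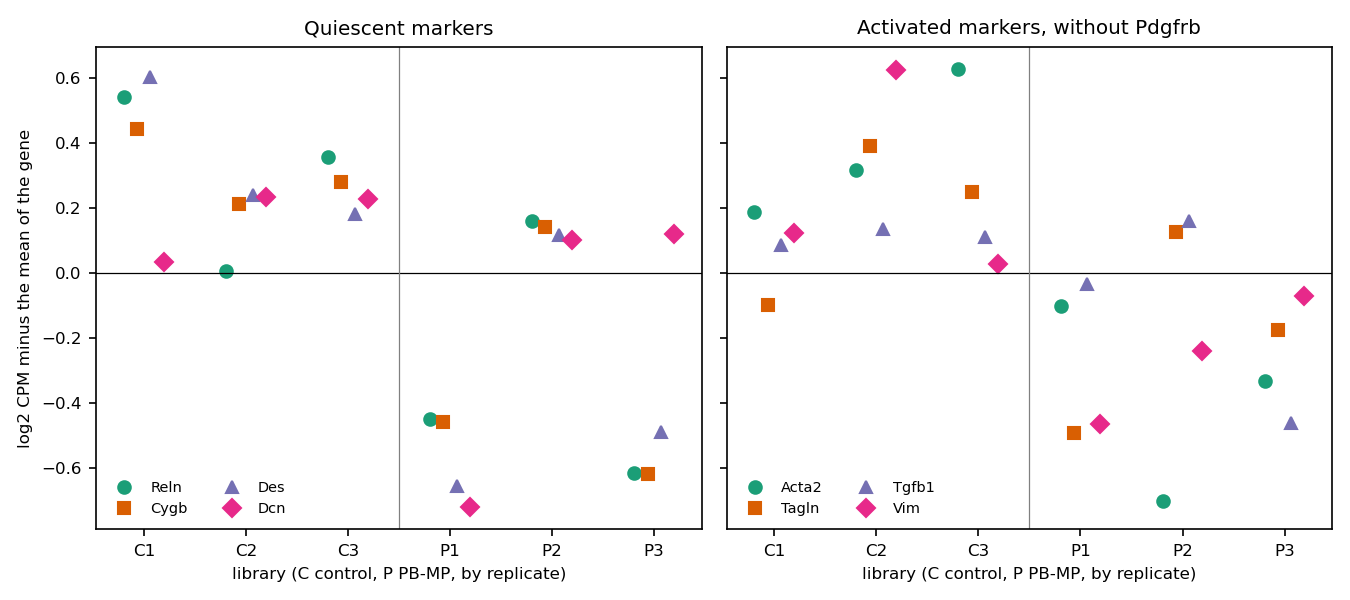
Log2 CPM of each member minus its own mean over the 6 libraries (vertical axis), by library (C control, P PB-MP). Reln, Cygb and Des are low in P1 and P3 and above 0 in P2, whereas Acta2 is lowest in P2. Pdgfrb is left out because of its count of 0.

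Other genes of resting stellate cells leaned the same way without passing. Of the 22 listed, 19 had estimates below 0, against 49.4% of all genes, and 0 passed, at a median of -0.35. Only 2 did not overlap between the groups, both lower, which is near the 8.49% of all genes. Bmp10 and Gdf2, the bone morphogenetic proteins that stellate cells send to sinusoidal endothelium and Kupffer cells, had log2 fold changes of -0.98 ± 0.37 and -0.60 ± 0.30. Bmp10 shared the library pattern of Reln, with 6.02, 4.97 and 4.98 CPM in control and 2.04, 4.28 and 1.80 CPM in PB-MP. Steap4, a metalloreductase, was at -0.35 ± 0.20. Lrat went the other way at 0.32 ± 0.39, its groups overlapping.

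Genes of activation and matrix had 14 of 18 tested estimates below 0, 7 of them without overlap (all lower, against 8.49% of all genes) and 0 passing, at a median of -0.47. The fibrillar collagens Col1a1, Col1a2 and Col3a1 had the smallest p among those of at least 1 CPM. Col1a1 stood at 5.53, 3.99 and 4.39 CPM in control and 2.45, 2.71 and 1.61 CPM in PB-MP, a log2 fold change of -1.04 ± 0.28 (edgeR adjusted p = 0.255). The estimates for Col1a2 and Col3a1 were -1.04 ± 0.30 and -0.82 ± 0.24. All 3 were separated between the groups, as Acta2 was, but their lowest library was PB-MP replicate 3. Fap and Cthrc1, genes of established fibrosis, had too few reads to be tested.

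The contractile and actin genes around Acta2 and Tagln had 11 of 15 estimates below 0 and 6 without overlap, all lower (8.49% of all genes), with 0 passing and a median of -0.26. Actb, cytoplasmic beta-actin, had 421, 377 and 406 CPM in control and 213, 203 and 195 CPM in PB-MP (-0.98 ± 0.14, edgeR adjusted p = 0.207). Actg1, cytoplasmic gamma-actin, was at -0.51 ± 0.20 and Tpm2, a tropomyosin, at -0.79 ± 0.30. Srf, the factor that binds CArG boxes, was at 0.06 ± 0.24, and its coactivators Mrtfa and Mrtfb at -0.27 ± 0.25 and 0.10 ± 0.28. Myocd, the smooth muscle coactivator of Srf, had reads in control replicate 2 only, at 0.149 CPM.

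The relatives of Lox were better covered than Lox itself. Loxl1 and Loxl2, which also crosslink matrix, had log2 fold changes of -0.62 ± 0.29 and -0.53 ± 0.32, and Loxl3 was at 0.19 ± 0.36. Of the 4 tested, 2 had estimates below 0 and 0 passed. Of the proteoglycans related to Dcn, 4 of 6 tested were below 0 with 0 passing, at a median of -0.43. Bgn, biglycan, was at -0.72 ± 0.28, Prelp at -0.65 ± 0.30 and Fmod, fibromodulin, at -0.78 ± 0.29. The 2 above 0 were Omd at 1.09 ± 0.68 and Ogn at 0.03 ± 0.70, both with overlapping groups. Bgn, at 51.2, 93.7 and 50.7 CPM in PB-MP against 124, 85.5 and 111 in control, had the library pattern of Reln and not that of Dcn.

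For the intermediate filaments Des and Vim, the listed partners had a median of 0.01, with 3 of 6 estimates below 0 and 0 passing. Gfap, a filament of resting stellate cells held also in the resting list, was the 1 of the 6 lower without overlap (8.49% of all genes). It had 0.494, 0.650 and 0.267 CPM in PB-MP against 1.11, 0.809 and 0.656 in control (-0.87 ± 0.41, edgeR adjusted p = 0.452). Its groups were barely apart, at 0.650 against 0.656 CPM. Plec, the plectin linker, was the 1 of the 6 with every PB-MP library above control (11.4% of all genes), at 47.4, 43.6 and 29.9 CPM against 28.0, 27.4 and 26.0 (0.57 ± 0.20, edgeR adjusted p = 0.347). Lmna and Synm were at -0.21 ± 0.35 and 0.18 ± 0.33.

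Around Tgfb1, the ligands, latency proteins and receptors had 11 of 15 estimates below 0, at a median of -0.16, with 0 passing. Without overlap, 3 were lower and 1 higher, against 8.49% and 11.4% of all genes. Ltbp1, which tethers latent ligand to matrix, was at -0.77 ± 0.31, and the receptor Tgfbr2 at -0.46 ± 0.20. Acvrl1, an endothelial receptor of the family, was the 1 higher gene, at 0.44 ± 0.23. Of the signal carriers and inhibitors, 7 of 12 had estimates below 0 and 0 passed, at a median of -0.06. Smad4, the shared partner of the SMAD factors, was at -0.54 ± 0.24, and Tgfbi, a matrix protein induced by the pathway, at -0.49 ± 0.28. Smurf2, a ubiquitin ligase for SMADs and receptors, was at -1.67 ± 0.70, but its control replicate 2 at 21.3 CPM stood above 3.32 and 5.22 CPM in the other controls.

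Around Pdgfrb, 5 of 6 ligands and receptors had estimates below 0 and 0 passed, at a median of -0.30. Pdgfa was at -0.42 ± 0.21, Pdgfc at -0.33 ± 0.29 and Pdgfra, the sister receptor, at -0.26 ± 0.41. Pdgfra was read in PB-MP replicate 1 at 4.34 CPM, where Pdgfrb had no read. Of the reelin receptors and adaptors, 3 of 5 tested had estimates below 0 and 0 passed. Vldlr, the reelin receptor read in liver, was at 0.28 ± 0.28, and Fyn and Src, kinases of this pathway, at -0.17 ± 0.31 and -0.09 ± 0.27. Lrp8 and Dab1, the other receptor and the adaptor of reelin, had too few reads to be tested.

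**Figure D4:**
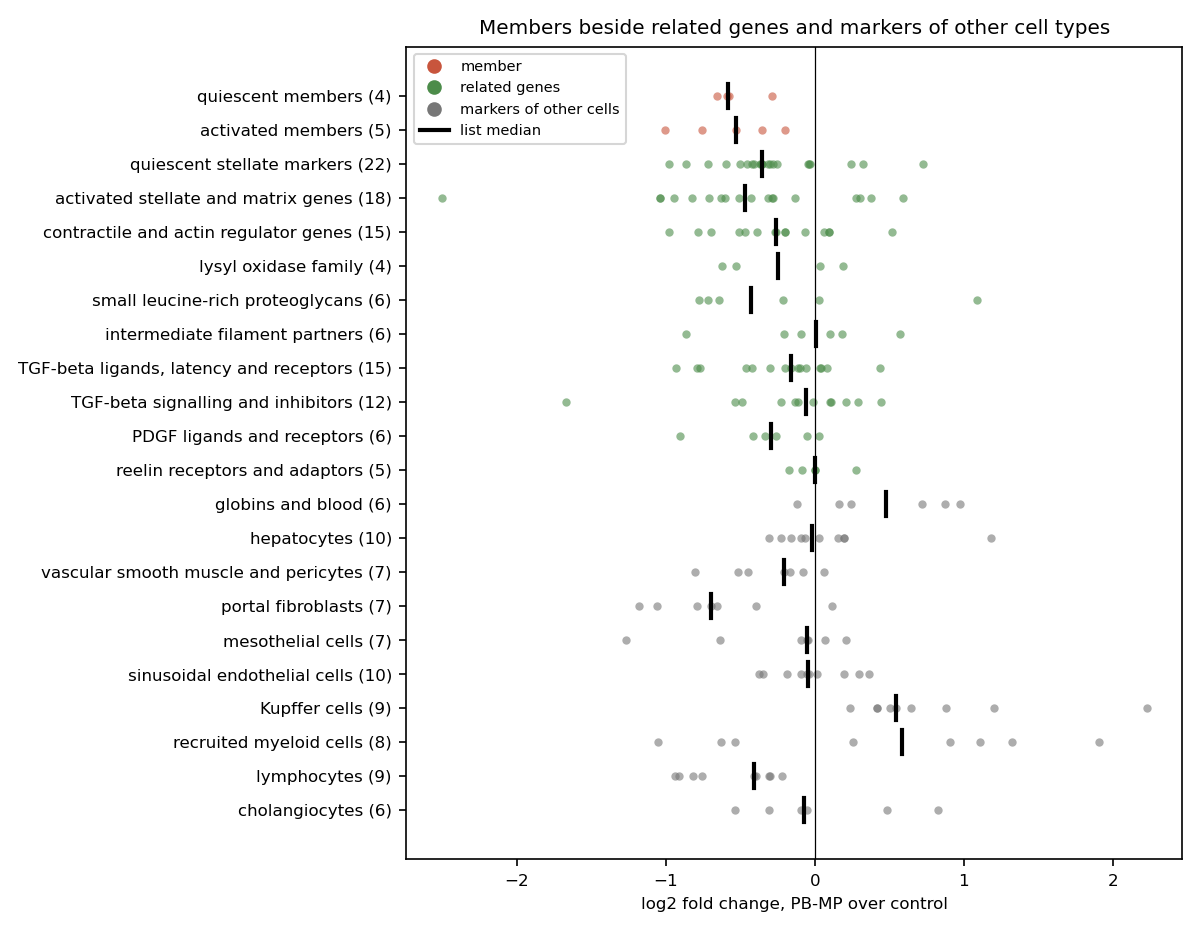
Log2 fold change of PB-MP over control (horizontal axis) for each tested gene of the lists with at least 4 tested genes, whose number is in brackets. Bars give list medians, which are -0.58 and -0.53 for the members and 0.55 for Kupffer cell markers.

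Smooth muscle cells, portal fibroblasts and mesothelium hold some of the same genes, and their markers mostly had estimates below 0. For smooth muscle and pericytes, 6 of 7 tested had estimates below 0, at a median of -0.20, and the summed level was 32.4 to 68.2 CPM in control and 34.0 to 65.0 CPM in PB-MP. Myh11, smooth muscle myosin, was at -0.51 ± 0.38, Notch3 at -0.45 ± 0.41, and Cnn1, Actg2 and Kcnmb1, which define contractile smooth muscle, were at or near 0 in all libraries (at most 0.254 CPM). For portal fibroblasts 6 of 7 tested were below 0, at a median of -0.70, and the sum was 13.7 to 18.1 CPM in control and 9.50 to 9.92 CPM in PB-MP. Entpd2 was at -0.70 ± 0.26 and Dpt, dermatopontin, at -0.79 ± 0.39, while Pi16, Gli1 and Clec3b were too low to test. Mesothelial markers summed to 2.32 to 8.50 CPM in control and 1.83 to 4.33 CPM in PB-MP. The part of these cells in the levels of Acta2, Tagln, Des and Dcn was not tested.

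Immune and endothelial markers differed in direction among themselves. All 9 Kupffer cell markers had estimates above 0, where 49.4% of all genes were below 0, at a median of 0.55. Their sums were 126 to 163 CPM in control and 153 to 340 CPM in PB-MP, the highest being PB-MP replicate 3. Marco and Vsig4, receptors of resident macrophages, were at 2.23 ± 0.82 and 0.88 ± 0.36. Both were highest in PB-MP replicate 3. Marco had 4.46, 4.61 and 30.3 CPM and Vsig4 14.7, 14.0 and 32.7 CPM in PB-MP replicates 1, 2 and 3. Recruited myeloid markers summed to 23.9 to 49.0 CPM in control and 25.2 to 133 CPM in PB-MP. The 133 CPM was that of PB-MP replicate 3 and was mostly Lyz2, at 125 CPM there and 19.7 to 42.8 CPM elsewhere. Csf3r, a granulocyte receptor, was at 1.32 ± 0.33 and Ly6c2 at -0.63 ± 0.34. Sinusoidal endothelial markers had a median of -0.05, 6 of 10 being below 0, with Stab1 at 0.36 ± 0.21 and Pecam1 at -0.19 ± 0.19. Hepatocyte markers had a median of -0.02 and cholangiocyte markers -0.07. All 9 lymphocyte markers were below 0, at a median of -0.41, with Cd79a at -0.82 ± 0.31. Of adipocyte markers, 3 of 6 were tested and all 3 were lower without overlap (8.49% of all genes), led by Cfd at -3.11 ± 0.65, while Adipoq and Plin1 were at or near 0. The part of these cells in the members' levels was not tested. Of the 190 genes tested from all these lists, 27 reached an unadjusted p below 0.05 in edgeR, against 12.1% of all genes, and 0 were called. The DESeq2 calls numbered 7, against 3.02% of all genes, both counts being near these shares. They were Actb, Cfd, Cidea and Col1a1 lower and Csf3r, Marco and S100a9 higher.

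The genes most like Acta2 and Dcn over the 6 libraries were found by the root mean square difference of centred log2 CPM among 11480 named genes of at least 1 CPM. For Acta2 they were Nln, Cyp2c55, Mettl9, Nipsnap2 and Slc18a1, at 0.126 to 0.137 log2 units. Nln, an oligopeptidase, had 28.9, 36.1 and 38.6 CPM in control and 23.1, 19.4 and 21.1 CPM in PB-MP. For Dcn they included Rcn3, Fhl1, Rnf8 and Rab3il1, at 0.0447 to 0.107 log2 units. Rcn3, a calcium-binding protein of the secretory pathway, had 4.39, 4.87 and 4.89 CPM in control and 2.36, 4.48 and 4.64 CPM in PB-MP. With 6 libraries and this many genes, close likeness to any pattern is found readily.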

How the data were processed

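Poly(A)-selected liver RNA was sequenced in 6 libraries built with a directional kit, per the labels' protocols. Per the submitters' processing notes, bcl2fastq and the build GRCm39 were used, with no roles given. The sources used here do not name the aligner, counter, annotation or strand setting. For 56674 gene symbols the authors deposited raw counts that were not normalized, and 939 rows share a name with another row. Among rows of 1 name, the symbol went to that with the highest total.

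Genes were kept by filterByExpr (minimum count 10, minimum total 15), which left 17871, scaled by TMM and tested in edgeR 4.0.16 (R 4.3.3) by quasi-likelihood, with Benjamini-Hochberg adjustment over all genes at 0.05. The SE is the log2 fold change divided by the square root of F. Centred log2 CPM used a prior count of 2. No 2 libraries agreed within sampling noise (chi-square per degree of freedom at least 197). In a simulation of PB-MP against control over 17483 genes, recovery was 0 of 67 for 1.5-fold changes, 0 of 67 for 2-fold and 24 of 66 for 4-fold. A second draw, over 17377 genes, gave 0 of 67, 2 of 67 and 34 of 66. Of 29 calls in the first draw and 39 in the second, 5 and 3 fell on unchanged genes. With no gene changed, 0 were called in either draw. In those draws 4.36% and 4.46% of genes had an unadjusted edgeR p below 0.05, against 12.1% in the data. Alternatives were 4 scalings, 2 filters, limma-voom (limma 3.58.1), DESeq2 1.42.0, a replicate block and each library left out.

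Exon lengths, transcript sequences and overlaps came from GENCODE M21 on GRCm38, and upstream sequences from RefSeq on GRCm38.p6, neither being the build GRCm39. The members and lists were chosen with earlier results of these data known. Named genes are the members, up to 3 genes per related list and up to 2 per cell type list by p among those averaging 1 CPM or more, and the 5 genes nearest to Acta2 and to Dcn. Of these, 1 is not reported here. Others, such as Lrat, Gfap, Srf, Omd, Ogn, Lyz2 and genes at or near 0, were chosen after their values were seen.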

Additional observations from a re-analysis of the deposited data

How the results depend on the processing

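Of 144 refits of single members (9 members under 16 alternatives), 143 kept the direction and stayed short of the threshold, the smallest adjusted p being 0.196. The exception was Tgfb1, at 0.017 with library size as the only scaling. No member passed under any alternative. The number of genes called over the whole table was 0 in the edgeR fit, 540 with DESeq2, and 0 to 1 with 1 library left out. It was 2 with control replicate 2 and PB-MP replicate 3 both left out, an alternative chosen after seeing the data. With 1 library left out, the median log2 fold change ran from -0.85 to -0.44 for resting markers and from -0.63 to -0.35 for the 5 activation markers tested (to -0.71 where Lox passed the filter and entered). The number of members at an unadjusted p below 0.05 was 4, and it was 5 with DESeq2, 0 with library size only and 1 with upper quartile scaling. With the replicate number as a block, 0 members passed and 0 were at an unadjusted p below 0.05, the medians being -0.62 and -0.52. Deviations of same-numbered libraries correlated at -0.0869, 0.0935 and 0.0816. These values give no sign that the numbers pair the samples, but cannot exclude it. Of the members, Lox and Acta2 had the fewest reads. In a pair of simulated draws, 2-fold changes were recovered in 0 and 2 of 67 genes. That recovery depends on how many genes were set to change, and the number that differ in the data is not known.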
